A study of Homo sapiens with 21 samples.

Results

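The plasminogen activation system and its serpins were followed through 7 genes of HMLE cells: the protease genes PLAU and PLAT, the receptor gene PLAUR, and the serpin genes SERPINE2, SERPINB2, SERPINB5 and SERPINB7. They were taken by their symbols, and all 7 were among the 23201 gene symbols listed and among the 13343 that passed a minimum mean normalized value of 10. HMLE, a human mammary epithelial cell line made immortal in culture, was seeded in wells at one starting density. The groups were untreated cells (d0) and cells on days 1, 4, 7, 10, 15 and 20 of treatment with TGFβ (d1 to d20), a cytokine that induces epithelial-to-mesenchymal transition (EMT) in such cells. The study describes the 3 libraries of each timepoint (21 in total over 7 timepoints) as biological triplicates. Untreated cells were sampled once, so TGFβ and time in culture cannot be told apart, and every comparison with d0 uses the same 3 untreated libraries.

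Plasmin is a broad protease that cleaves fibrin and other matrix proteins and is made from plasminogen by the activators urokinase (uPA, from PLAU) and tissue-type plasminogen activator (tPA, from PLAT). Urokinase acts largely at the cell surface, where it binds its receptor uPAR (from PLAUR), and serpins block the activators by trapping them in a covalent complex. The system is known for its part in fibrinolysis, wound healing and the movement of epithelial and tumor cells through matrix.

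The values, called normalized values here, are read counts scaled by the size factor of each library. Recovered reads totalled 18847917 to 22667754 per library. Within timepoints other than d7, the root mean square difference in log2 value between 2 libraries was 0.21 to 0.24, while for the third d7 library against the other two it was 0.47 and 0.46, so calls that changed without it are given both ways. Libraries of a day are numbered by their order in the table, which gives them no replicate numbers. Of 5 basal mammary epithelial markers, KRT5, KRT14, TP63 and CDH1 had means of 2868 or more at every timepoint. Each of these had a lower mean at d10 than at d0 (KRT5 224349 at d0 and 101276 at d10). The other treated days differed by gene. At d7 each had a higher mean than at d0, but the d7 libraries were far apart in KRT5 and KRT14. KRT5 had a mean of 243157 (SD 81837) at d7, so its d0 mean lay within that spread. KRT14 had 72774 at d0 and 162121 (SD 43792) at d7. CDH1 was only slightly higher (7195 at d0 and 7254, SD 893, at d7). The summed value of the 5 basal markers was 273932 to 507586 at d7 and 299788 to 319749 at d0. KRT14 was below d0 at d10 alone. EPCAM went from a mean of 2106 at d0 to 297 to 1070 on treated days. The summed value of 4 mesenchymal markers (VIM, FN1, CDH2 and ZEB1) went from 9284.5 to 9682 at d0 to 181968 or more in every treated library. Among markers of other cell types, PTPRC and CD3E of leukocytes and CDH5 of endothelium had at most 1 read in any library, and ITGAM, VWF and the neural RBFOX3, SYP and GFAP at most 19. CD14 and PECAM1 had means of 46.4 and 41.3 at d0 and at most 16.4 and 14.7 on treated days, and TEK went from 1.43 at d0 to between 3.32 and 20.7. The part of these markers in the results was not tested. In bulk RNA, fewer cells of a type and less RNA per cell cannot be told apart.

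PLAU, PLAUR, SERPINE2, SERPINB5 and SERPINB7 were higher than in untreated cells on all 6 treated days, PLAT was lower on all 6, and SERPINB2 fell from d10 onward, with a call at d7 that rested on single libraries. SERPINB7 lost its d10 call under other scalings, given with its values. A gene is called higher or lower where its adjusted p was below 0.05 (limma, Benjamini-Hochberg over the 13343 genes). Calls were common in these data, so each count of members stands beside the share of all genes called the same way. On day 1, 5 members were higher (31.3% of all genes) and 1 was lower (28.5%). The counts were 5 and 1 on day 4 (36.9% and 35.3% of all genes). They were 5 and 2 on day 7 (34.6% and 32.6%, with 1 lower without the third d7 library or the first or the third d0 library), day 10 (37% and 30.7%), day 15 (39.2% and 37.3%) and day 20 (32.5% and 30.2%). The 5 members that were higher on all 6 days compare with 14.3% of all genes, and the single one that was lower on all 6 with 8.26%.

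With a change of at least 2-fold also required, fewer genes were called. The members higher numbered 4 on day 1, 5 on day 4, 4 on day 7 and 3 on each of the last 3 days, where 6.47%, 9.68%, 8.79%, 6.94%, 11.7% and 7.51% of all genes were higher on those days. The members lower by that measure numbered 1 on days 1, 4, 7 and 20 and 2 on days 10 and 15, against 3.87%, 5.03%, 2.93%, 4.72%, 7.34% and 8.66% of all genes in that order of days. The median log2 fold change over the 7 members was lowest on day 15 (0.80) and highest on day 7 (1.42), while the median over all genes tested stayed between -5e-04 and 0.03.

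**Figure D1:**
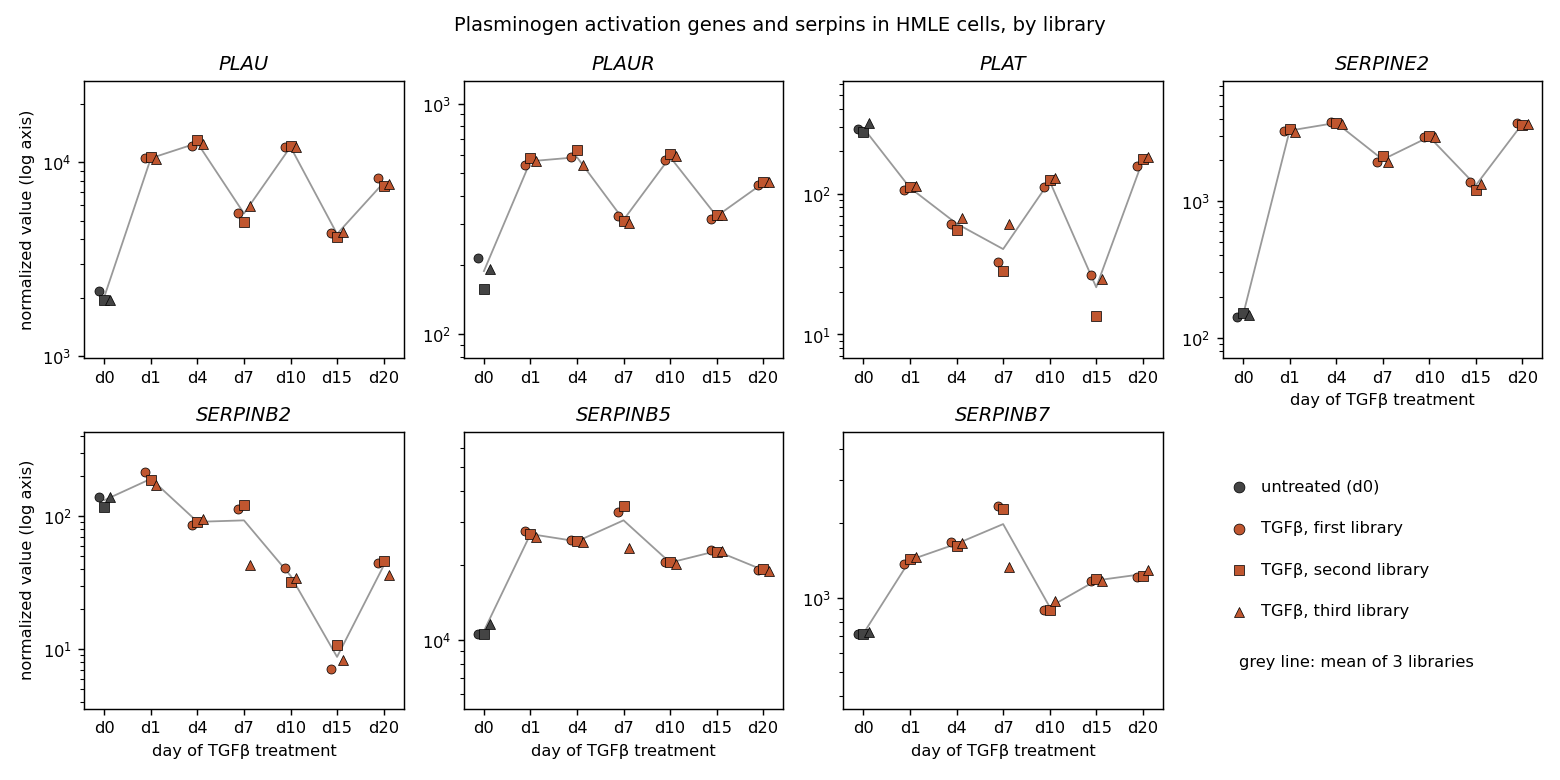
Normalized value (log axis) of each of the 7 genes in every library against the day of TGFβ treatment, with d0 in dark grey, treated libraries in orange with a marker for each library of a day, and a grey line through the means of 3 libraries. PLAU, PLAUR and SERPINE2 sit above d0 on every treated day with low points at d7 and d15, PLAT sits below d0, and the third d7 library is apart in PLAT, SERPINB2, SERPINB5 and SERPINB7.

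PLAU encodes urokinase, the activator most tied to cell migration. The normalized values of PLAU were 2167, 1959 and 1961 before treatment, 10467, 10631 and 10328 on day 1, 12144, 13069.5 and 12403 on day 4, 5462, 4930.3 and 5937 on day 7, 11930.3, 12049 and 11959.9 on day 10, 4334, 4099.96 and 4374 on day 15 and 8249.7, 7530.3 and 7719 on day 20. No treated library overlapped the untreated ones. Among treated days the values were highest at d1, d4 and d10 and lowest at d7 and d15, with d20 in between. The mean was 2029 ± 119 (SD, n = 3) in untreated cells, 10475 ± 152 on day 1 and 12539 ± 478 on day 4. The log2 fold change was 2.37 (SE 0.05, adjusted p = 2.6e-19) on day 1, 2.63 on day 4, 1.42 on day 7, 2.56 on day 10, 1.07 on day 15 and 1.95 on day 20, and 1.36 on day 7 without the third library. In the order of its levels only d4 and d10 were not separated (log2 difference 0.07, adjusted p = 0.283). PLAU overlaps the lncRNA gene C10orf55, which reached at most 92.3 in any library. The strandedness of the counting is not given in the sources used here, so reads of the overlap cannot be assigned with certainty.

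PLAUR encodes the glycolipid-anchored receptor that holds urokinase at the cell surface. PLAUR had normalized values of 214, 158 and 193 before treatment, 542, 583 and 566 on day 1, 588, 627 and 543 on day 4, 326, 311 and 304 on day 7, 568, 603 and 591 on day 10, 317, 328 and 330.4 on day 15 and 446, 456 and 457 on day 20. Every treated library was above every untreated one, and the lows again came at d7 and d15. Its log2 fold change against d0 was 1.59 (SE 0.08, adjusted p = 2.1e-13) at d1, 1.64 at d4 and 1.65 at d10, and it was 0.75 at d7 (0.77 without the third library), 0.80 at d15 and 1.27 at d20. The levels at d10, d4 and d1 were not separated from one neighbor to the next, nor were those at d15 and d7. The receptor gene rose by less than its ligand gene at d1: the ratio of PLAU to PLAUR values was 10.9 ± 1.31 (SD, n = 3) at d0 and 18.6 ± 0.615 at d1. On day 15 that ratio was 13.1 ± 0.595, and its lowest library (12.49) was next to the highest untreated one (12.42).

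PLAT encodes tPA, the activator best known from fibrin clots and the vasculature. PLAT had normalized values of 287, 275 and 317 before treatment, 106, 112 and 113 on day 1, 61, 55.5 and 67.6 on day 4, 32.7, 28.1 and 60.5 on day 7, 112, 126 and 130.1 on day 10, 26.5, 13.6 and 24.9 on day 15 and 158, 176 and 183 on day 20. All 18 treated libraries lay below the 3 untreated ones, and the lowest were at d15. The log2 fold change was -1.40 (SE 0.22, adjusted p = 1.2e-05) on day 1, -2.24 on day 4, -2.90 on day 7, -1.25 on day 10, -3.75 on day 15 and -0.76 on day 20 (adjusted p = 0.00471). The third d7 library was about the level of d4, and without it the d7 change was -3.23. The d15 values rest on 15 to 26 reads per library, against 320 to 324 at d0.

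PLAT and PLAU moved in opposite directions from d0. The ratio of PLAT to PLAU values was 0.145 ± 0.0149 (SD, n = 3) at d0 and between 0.00331 and 0.0237 in the 18 treated libraries. Normalized values are not corrected for gene length, so only the change of such a ratio between days is read, not its size.

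SERPINE2 encodes protease nexin-1, a secreted inhibitor of urokinase, tPA, plasmin and thrombin. It had the largest fold change of the 7 members on each of the 6 days by absolute log2 value, apart from d15, where PLAT and SERPINB2 fell by more. SERPINE2 measured 142, 153 and 146 before treatment, 3278, 3362 and 3208 on day 1, 3786, 3739 and 3696 on day 4, 1946, 2146 and 1949 on day 7, 2929.8, 2994 and 2944 on day 10, 1377, 1198 and 1336 on day 15 and 3730.01, 3626 and 3683 on day 20. The 3 untreated libraries were far below every treated one, and within each day the libraries were close together. The log2 fold change was 4.47 (SE 0.05, adjusted p = 6.1e-25) on day 1, 4.66 on day 4, 3.77 on day 7, 4.32 on day 10, 3.14 on day 15 and 4.64 on day 20, and 3.79 on day 7 without the third library. The levels at d4 and d20 were not separated (log2 difference 0.02, adjusted p = 0.673).

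The inhibitor gene rose by more than the activator gene it targets. The ratio of PLAU to SERPINE2 values was 15.3, 12.8 and 13.4 in the untreated libraries and between 2.08 and 4.07 in the 18 treated ones. The highest mean of a treated day was 4.05 ± 0.025 (SD, n = 3) at d10 and the lowest 2.13 ± 0.0729 at d20. These ratios are within libraries and do not depend on how libraries were scaled.

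SERPINB2 encodes PAI-2, a clade B serpin that inhibits urokinase and is largely kept inside the cell. SERPINB2 measured 139, 117 and 139.5 before treatment, 215, 186 and 171 on day 1, 86.2, 90.6 and 95 on day 4, 114, 122 and 42.8 on day 7, 40.8, 32.1 and 34.2 on day 10, 7.14, 10.8 and 8.29 on day 15 and 44.5, 46.3 and 36.2 on day 20. The d1 libraries were above the untreated ones, the d4 libraries below them, and at d10, d15 and d20 every library was far below. Neither early difference passed the test (d1: log2 0.53, adjusted p = 0.0846, and d4: log2 -0.53, adjusted p = 0.0699), although both passed with edgeR and with DESeq2 on the recovered reads. SERPINB2 fell by 1.86 at d10, by 3.78 at d15 (adjusted p = 1.7e-11) and by 1.62 at d20 on the log2 scale. The d7 call (log2 -0.63, adjusted p = 0.0352) rested on the third library: without it the change was -0.15 (adjusted p = 0.435).

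The pair of inhibitors thus separated over the course. SERPINE2 was higher and SERPINB2 lower than untreated at d10, d15 and d20, and the ratio of PLAU to SERPINB2 values went from 15.5 ± 1.35 (SD, n = 3) at d0 to 339 ± 42.6 at d10 and 504 ± 116 at d15. The d15 values of SERPINB2 rest on 7, 12 and 8 reads.

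SERPINB5 encodes maspin, a clade B serpin of mammary epithelium studied as a tumor suppressor, which is thought not to inhibit proteases in the usual serpin way. The libraries of SERPINB5 read 10507, 10495 and 11531 before treatment, 27479, 26815 and 26025 on day 1, 25268, 25019 and 24759 on day 4, 33032, 34784 and 23479.6 on day 7, 20718, 20538 and 20281 on day 10, 23011, 22644 and 22912 on day 15 and 19074, 19321 and 19031 on day 20. Every treated library was above every untreated one by a wide margin, and apart from d7 the libraries of a day were close together. The log2 fold change was 1.30 (SE 0.09, adjusted p = 2.4e-11) on day 1, 1.21 on day 4, 1.47 on day 7, 0.92 on day 10, 1.08 on day 15 and 0.82 on day 20. No treated day was separated from its next neighbor in the order of levels (d7, d1, d4, d15, d10, d20), but d7 and d20, its ends, were (log2 difference 0.65, adjusted p = 1.8e-06). Without the third d7 library the d7 change was 1.65.

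SERPINB7 encodes megsin, a clade B serpin of skin and kidney. The libraries of SERPINB7 read 713, 709.9 and 728 before treatment, 1374, 1431 and 1459 on day 1, 1678, 1615 and 1667 on day 4, 2352, 2278 and 1331 on day 7, 892, 891 and 970.02 on day 10, 1172, 1187 and 1166 on day 15 and 1218, 1223 and 1299 on day 20. All treated libraries were above the untreated ones, least so at d10. The log2 fold change was 0.99 (SE 0.12, adjusted p = 6.4e-07) on day 1, 1.20 on day 4, 1.42 on day 7, 0.35 on day 10, 0.71 on day 15 and 0.80 on day 20. The d10 call (adjusted p = 0.0155) was lost when libraries were rescaled to one total (log2 0.13, adjusted p = 0.352), after quantile normalization (log2 0.26, adjusted p = 0.0843) and without the third d10 library (adjusted p = 0.0588). Without the third d7 library the d7 change was 1.69.

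**Figure D2:**
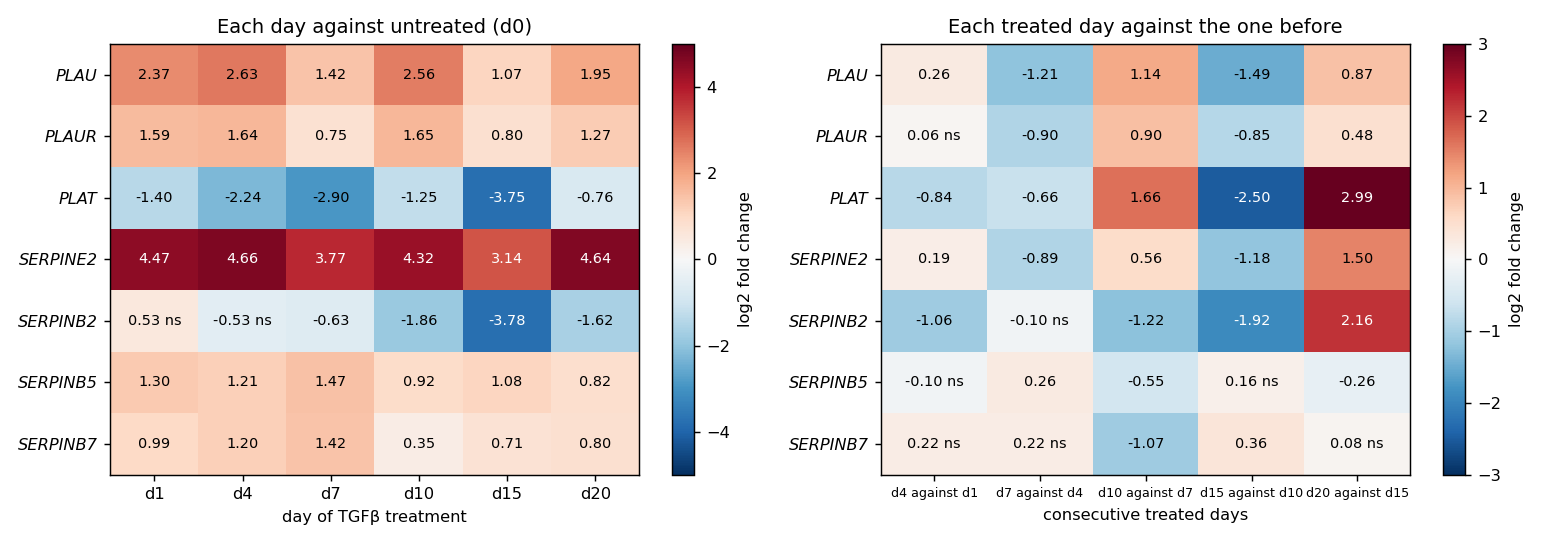
Log2 fold change of the 7 genes (rows) for each treated day against untreated cells (left) and against the treated day before it (right), in red where higher and in blue where lower, with ns where the adjusted p was 0.05 or more. SERPINE2 reaches 4.66 at d4, SERPINB2 and PLAT reach -3.78 and -3.75 at d15, and PLAU, PLAUR, PLAT and SERPINE2 alternate in sign from d7 to d20 on the right.

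After d4, 4 members shared a fall and rise. PLAU, PLAUR, SERPINE2 and PLAT were each lower at d7 than at d4, higher at d10 than at d7, lower at d15 than at d10 and higher at d20 than at d15. PLAU changed by -1.21, 1.14, -1.49 and 0.87 over these steps on the log2 scale, and SERPINE2 by -0.89, 0.56, -1.18 and 1.50. The steps of PLAUR were -0.90, 0.90, -0.85 and 0.48, and those of PLAT were -0.66, 1.66, -2.50 and 2.99. This order of calls was noticed in these data and holds for 943 of the 13343 genes (7.07%). Without the third d7 library the same 4 members had it, among 1591 genes (11.9%). The weakest of these calls was the d7 step of PLAT (adjusted p = 0.0155), which was lost without the first or the second d7 library or the third d4 library, and with only the 2 timepoints in the fit (adjusted p = 0.109).

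The other members moved differently. Between d4 and d7, 1 member was higher and 4 were lower (25.5% of all genes in each direction), the higher one being SERPINB5 (log2 0.26, adjusted p = 0.0148). Without the third d7 library 2 were higher, SERPINB5 (log2 0.44) and SERPINB7 (log2 0.49), and 4 lower, against 29.2% and 30.1% of all genes. From d7 to d10, 4 members were higher and 3 lower (36.2% and 35.2% of all genes), and the 3 that fell were the clade B serpins SERPINB2, SERPINB5 and SERPINB7. Between d10 and d15, 1 member was higher and 5 were lower (39.3% and 40.5%), the higher one being SERPINB7 (log2 0.36). From d15 to d20, 5 were higher and 1 was lower (37.7% and 36.3%), and SERPINB2 was among those that rose, by 2.16 on the log2 scale (adjusted p = 1.7e-07). Between d1 and d4, 2 members were higher (PLAU and SERPINE2) and 2 lower (PLAT and SERPINB2), against 32.9% and 32% of all genes.

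Genes of the cell cycle were also low at d15. All 5 of 5 such genes examined (MKI67, TOP2A, CCNB1, CDK1 and PCNA, a list added after the levels at d15 were seen) had their lowest mean there, and their summed value was 15104 to 15451 at d15 against 26077 or more in every other library. At d7 that sum was 31531 to 40560, above the 26077 to 27457 of d4. PLAU, PLAUR and SERPINE2 were lower at d7 than at d4. The genes of the sum were not alike in this. TOP2A had a mean of 15354 (SD 593) at d7 and 10728 (SD 499) at d4, and CDK1 and PCNA were also higher by more than their SDs. The d7 libraries were far apart in MKI67 (mean 8631, SD 2794) and CCNB1 (mean 4964, SD 1768). Their d4 means, 7346 and 4307, lay within that d7 spread. The part of cell division in the members' levels was not tested.

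**Figure D3:**
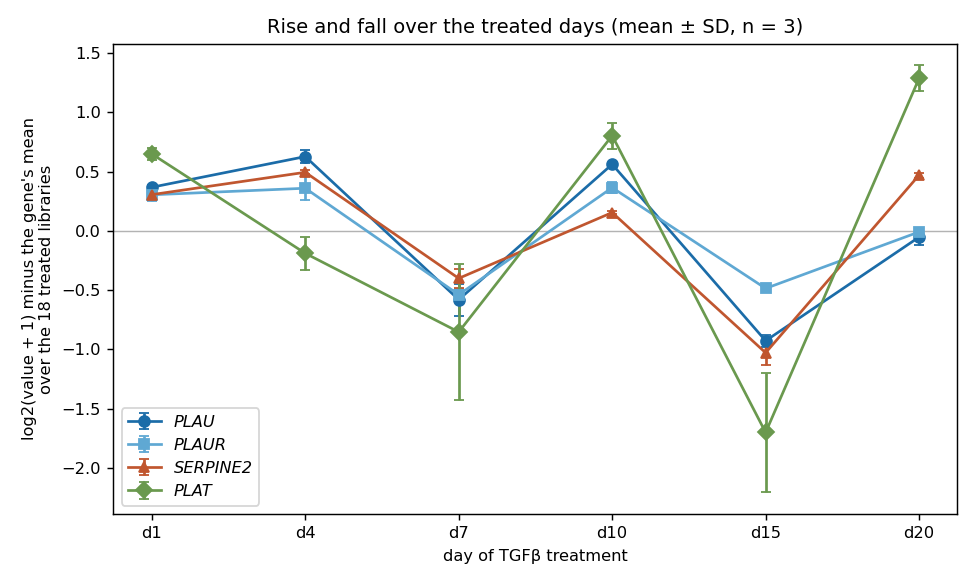
Level of PLAU, PLAUR, SERPINE2 and PLAT over the 6 treated days as log2(value + 1) minus each gene's mean over the 18 treated libraries, with points for means and bars for the SD of 3 libraries. All 4 genes are lower at d7 and d15 than at d10 and d20, and PLAT has the widest bars at d7 and d15.

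Promoter sequences are shown for 5 members because they moved together or apart while lying, in part, next to each other on chromosome 18, and the windows show which short sites they share. RefSeq (GRCh38.p14) listed 10 starts for 6 of the 7 members: 2 each for SERPINE2 and PLAU, 1 each for PLAUR, SERPINB2 and SERPINB5, and 3 for SERPINB7. The 250 bases before each start were searched on both strands for the AP-1 letters TGANTCA, for the SMAD letters CAGAC and for the E-box letters CAGGTG. Over 35116 RefSeq promoter windows of that length, 6.57% held the first, 38% the second and 17.5% the third. The AP-1 letters were in 5 of the 10 members' windows, from 4 of the 6 members, the SMAD letters in 6 windows from 5 members, and the E-box letters in 2 windows from 2 members. The windows run 5′ to 3′ and end at the base before the start. Capitals mark the matches. In the window of the third SERPINB7 start, a SMAD match and an AP-1 match share bases.

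PLAUR (chr19:43670170-43670419, minus strand) held 1 AP-1 and 1 SMAD match, and the second of 2 PLAU starts (chr10:73910882-73911131, plus strand) held a SMAD and an E-box match but no AP-1 match. SERPINB5 (chr18:63476708-63476957, plus strand) held all 3 motifs, and SERPINB2 (chr18:63887455-63887704, plus strand) held an AP-1 match 102 bases and a SMAD match 9 bases before its start. The second (chr18:63775168-63775417, plus strand) and the third (chr18:63777531-63777780, plus strand) SERPINB7 starts held 2 AP-1 matches each.
PLAUR: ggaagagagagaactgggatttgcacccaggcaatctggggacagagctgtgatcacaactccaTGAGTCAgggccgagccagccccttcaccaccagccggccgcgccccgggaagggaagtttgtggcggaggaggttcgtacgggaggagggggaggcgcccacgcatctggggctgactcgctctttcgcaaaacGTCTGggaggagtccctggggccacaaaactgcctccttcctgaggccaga
PLAU start 2: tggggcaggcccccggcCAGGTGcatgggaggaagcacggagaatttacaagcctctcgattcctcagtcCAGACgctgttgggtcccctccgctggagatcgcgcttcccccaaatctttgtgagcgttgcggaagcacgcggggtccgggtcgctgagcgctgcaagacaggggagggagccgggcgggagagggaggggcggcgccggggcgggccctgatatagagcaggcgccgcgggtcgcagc
SERPINB5: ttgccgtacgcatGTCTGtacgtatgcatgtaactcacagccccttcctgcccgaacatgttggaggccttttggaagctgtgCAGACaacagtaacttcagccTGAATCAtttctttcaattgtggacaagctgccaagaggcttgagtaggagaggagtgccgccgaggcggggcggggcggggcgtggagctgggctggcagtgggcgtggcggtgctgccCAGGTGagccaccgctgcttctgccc
SERPINB2: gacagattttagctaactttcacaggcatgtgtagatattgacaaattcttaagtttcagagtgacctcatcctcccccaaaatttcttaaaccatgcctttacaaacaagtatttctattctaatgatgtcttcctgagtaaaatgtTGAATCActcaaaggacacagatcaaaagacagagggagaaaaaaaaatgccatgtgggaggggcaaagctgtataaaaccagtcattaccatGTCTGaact
SERPINB7 start 2: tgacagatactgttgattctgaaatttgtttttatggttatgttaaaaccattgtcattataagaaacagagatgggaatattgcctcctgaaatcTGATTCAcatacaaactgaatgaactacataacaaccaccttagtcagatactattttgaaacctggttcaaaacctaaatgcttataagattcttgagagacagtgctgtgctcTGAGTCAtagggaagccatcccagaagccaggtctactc
SERPINB7 start 3: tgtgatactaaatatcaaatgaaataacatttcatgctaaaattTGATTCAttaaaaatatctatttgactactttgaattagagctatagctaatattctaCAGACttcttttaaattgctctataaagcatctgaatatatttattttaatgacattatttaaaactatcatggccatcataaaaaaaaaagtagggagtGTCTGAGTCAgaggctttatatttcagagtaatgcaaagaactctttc

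Neither window of SERPINE2, the member with the largest rise, held the AP-1, SMAD or E-box letters, and neither did the first PLAU window. AP-1 letters were found both before genes that were higher on all 6 days (PLAUR, SERPINB5 and SERPINB7) and before SERPINB2, which fell late. The values are per gene, so which start was used cannot be read from them. A match is a run of letters and says nothing of whether a factor was bound.

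SERPINB2, SERPINB5 and SERPINB7 lie in a run of clade B serpin genes on chromosome 18, in the RefSeq order SERPINB5, SERPINB12, SERPINB13, SERPINB4, SERPINB3, SERPINB11, SERPINB7, SERPINB2, SERPINB10 and SERPINB8. Neighbors did not move as a block. SERPINB7 and SERPINB2, side by side, were higher and lower respectively at d10, d15 and d20, although the SERPINB7 call at d10 was lost under other scalings. SERPINB13, a keratinocyte serpin that inhibits cathepsins, was lower on all 6 days, from 986 ± 36.7 (SD, n = 3) at d0 to 67.4 ± 2.89 at d10 (log2 -3.85, adjusted p = 8.1e-14). SERPINB8 was higher at d1, d10 and d20 and lower at d4 and d15 (log2 -0.62 and -1.07). SERPINB3 was lower at d10 (log2 -2.06) and d20 (log2 -2.92), with values of 0 to 98.0, and its reads can be shared with its near-identical copy SERPINB4, so both are uncertain. SERPINB10, SERPINB11 and SERPINB12 had at most 3 reads in every library.

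**Figure D4:**
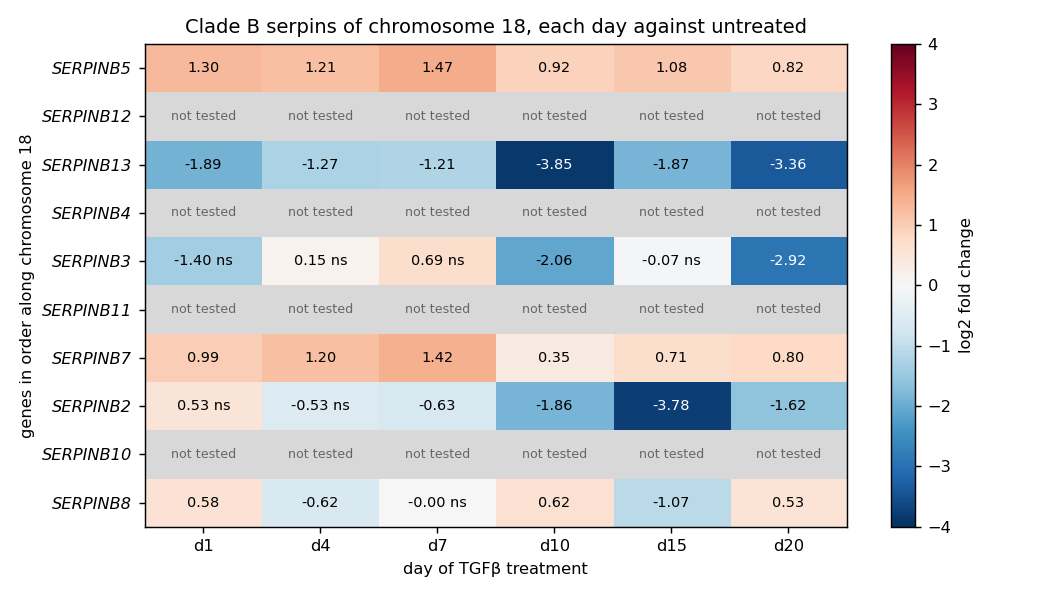
Log2 fold change against untreated cells on each treated day for the clade B serpin genes of chromosome 18, listed from top to bottom in chromosomal order, with ns where the adjusted p was 0.05 or more and grey where a gene was below the minimum mean value and not tested. SERPINB5 and SERPINB7 are red, SERPINB13 is blue on all 6 days, and SERPINB2 turns blue toward d15.

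The gene of the plasmin precursor stayed at the detection floor. PLG, which encodes plasminogen and is chiefly a liver gene, had at most 3 reads in every library. Of the other 5 genes of the list of plasminogen and its cell surface receptors, 3 were higher and 1 lower on day 1, 2 and 3 on day 4, 2 and 2 on day 7, 3 and 1 on day 10, 3 and 2 on day 15, and 2 and 0 on day 20. The shares of all genes called on the same days were 31.3% to 39.2% higher and 28.5% to 37.3% lower, and they are the background for each list that follows. ANXA2 and S100A10, which together form a plasminogen-binding complex at the membrane, were higher on all 6 days, by 0.85 and 0.71 on the log2 scale at d1. Their rise was smallest at d15 (0.10 and 0.19), where rescaling to one total gave -0.06 and 0.03 and quantile normalization -0.27 and -0.04. ENO1, a glycolytic enzyme that also binds plasminogen, was lower at d4, d7 and d15 (log2 -0.75) and higher at d1 and d10 (0.23 and 0.34, which quantile normalization turned to -0.43 and -0.34). KRT8 was lower at d1, d4 and d10 (log2 -0.53, -0.29 and -0.67) and higher at d15 (log2 0.50). ANXA2, ENO1 and KRT8 have processed pseudogenes that can share their reads. PLGRKT, listed under its older symbol C9orf46, was lower at d4, d7 and d15 (log2 -0.43, -0.47 and -0.50).

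Of the 5 plasmin inhibitor genes, SERPINF2 and SERPING1 passed the minimum value. SERPINF2, the gene of α2-antiplasmin, was higher at d15 (log2 0.61), and SERPING1, the gene of C1 inhibitor, was higher at d4 (log2 0.60, a call lost on rescaling to one total, adjusted p = 0.0847) and d7 and lower at d1, d10 (log2 -1.64) and d20, with means of 14.7 to 77.0. Both are also counted among the serpins outside clade B. Of the 6 upstream proteases and their inhibitors, 4 were tested. ST14, which encodes matriptase, an epithelial membrane protease that can activate pro-urokinase, was lower on all 6 days, from 4602 ± 74.8 (SD, n = 3) at d0 to 1104 ± 8.26 at d15 (log2 -2.06, adjusted p = 2.0e-19). Its inhibitor gene SPINT1 was higher at d1, d4 (log2 0.75), d7 and d15 and lower at d20 (log2 -0.40). SPINT2 changed by at most 0.22 on the log2 scale, with a sign at d1 and d4 that turned when libraries were rescaled to one total (-0.06 and -0.01), and its d7 change was called lower without the third d7 library (log2 -0.08, adjusted p = 0.0136, against -0.02 and 0.682 with it). F12 was lower at d7 (log2 -0.63).

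Of the 8 clearance receptors and partners of the urokinase receptor, 6 were tested, and all 6 were higher at d7 (34.6% of all genes) and at d15 (39.2%), although IGF2R at d7 (log2 0.18) lost its call on rescaling to one total (-0.01) and under quantile normalization (0.10). On the other days the calls were split (3 up and 3 down on day 1, 4 up and 1 down on day 4, 2 each way on day 10) or few (2 up on day 20). The median log2 change was 0.59 at d7 and 0.73 at d15, against 0.02 at d1 and -0.01 at d10. MRC2, which encodes the collagen receptor Endo180 that associates with uPAR, rose from 3493 ± 62.4 (SD, n = 3) to 13434 ± 132 at d15 (log2 1.94) and was higher on all 6 days. LRP1, the endocytic receptor that removes protease and serpin complexes, was lower at d1 (log2 -0.95) and d10 (log2 -1.23) and higher at d4, d7 and d15 (log2 1.28). Its highest means came on days 15 and 7, when PLAU, PLAUR and SERPINE2 had their lowest treated means. It was also higher at d4 (log2 0.49), the day of the highest PLAU and SERPINE2 means. A link between these genes was not tested. VLDLR was higher on all 6 days (log2 1.83 at d20), and LRPAP1, the chaperone of these receptors, was highest at d15 (log2 0.53).

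Of the 8 thrombin and tissue factor genes, 7 were tested, and 6 or 7 of them were higher on each day (1 was lower at d15), where 31.3% to 39.2% of all genes were higher. Rescaling to one total ended the calls of THBD at d1 (adjusted p = 0.205) and F2R at d10 (adjusted p = 0.295), and quantile normalization that of THBD at d1 (adjusted p = 0.0514). F3, which encodes tissue factor, the starter of coagulation, rose on day 1 from 1184 ± 126 (SD, n = 3) to 9784 ± 194 (log2 3.05, adjusted p = 1.9e-19) and stayed higher on all 6 days. TFPI2, a Kunitz-type inhibitor of plasmin and other proteases, was higher at d1 (log2 2.89), d4, d10 and d20 and lower at d15 (log2 -2.57). At d7 its libraries were 47.5, 48.0 and 142, and the change from d0 was -0.21 (adjusted p = 0.468) with the third and -0.73 (adjusted p = 1.6e-06) without it. THBD, which encodes thrombomodulin, was higher at d1, d4, d7 and d15 (log2 1.51 at d15), with d7 libraries of 1292, 1167 and 490.5. F2R, the gene of the main thrombin receptor, was higher at d4, d7, d10, d15 (log2 1.01) and d20.

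Serpins outside clade B inhibit proteases of blood and tissue fluid or have other roles. Of the 8 described here, 1 was higher and 4 lower on day 1, 5 and 1 on day 4, 4 and 0 on day 7, 1 and 4 on day 10, 6 and 0 on day 15, and 2 and 2 on day 20. Without the third d7 library SERPINI1 was also higher at d7 (log2 0.57, adjusted p = 0.016, against 0.28 and 0.283 with it). Rescaling to one total ended the calls of SERPINF1 and SERPING1 at d4 and of SERPINH1 at d20. SERPINA1, the gene of α1-antitrypsin, was higher on all 6 days (log2 1.77 at d15). SERPINA3 and SERPINA5 were higher at d4, d7 and d15 (log2 1.51 and 1.60 at d4) and lower at d1 and d10 (log2 -2.26 and -1.17 at d10). At d20 SERPINA3 was lower as well (log2 -2.12), while SERPINA5 was not called (log2 -0.31, adjusted p = 0.139). Of 5 tested clade B serpins other than the members, 3 rose and 1 fell on day 1, 1 rose and 2 fell on day 7, 0 rose and 3 fell on day 15, and 2 rose and 2 fell on each of the other 3 days. The higher one at d7 was SERPINB6 (log2 0.15), which lost its call without the third d7 library (0.06, adjusted p = 0.167) and on rescaling to one total (-0.04), and whose calls at d10 and d20 were lost on rescaling too. SERPINB3 was called higher at d7 without that library (log2 1.28, adjusted p = 0.0275, against 0.69 and 0.348 with it). SERPINB1, a neutrophil elastase inhibitor, had means of 519 ± 20.6 (SD, n = 3) at d0, 769 ± 34.5 at d1 and 393 ± 48.9 at d15.

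**Figure D5:**
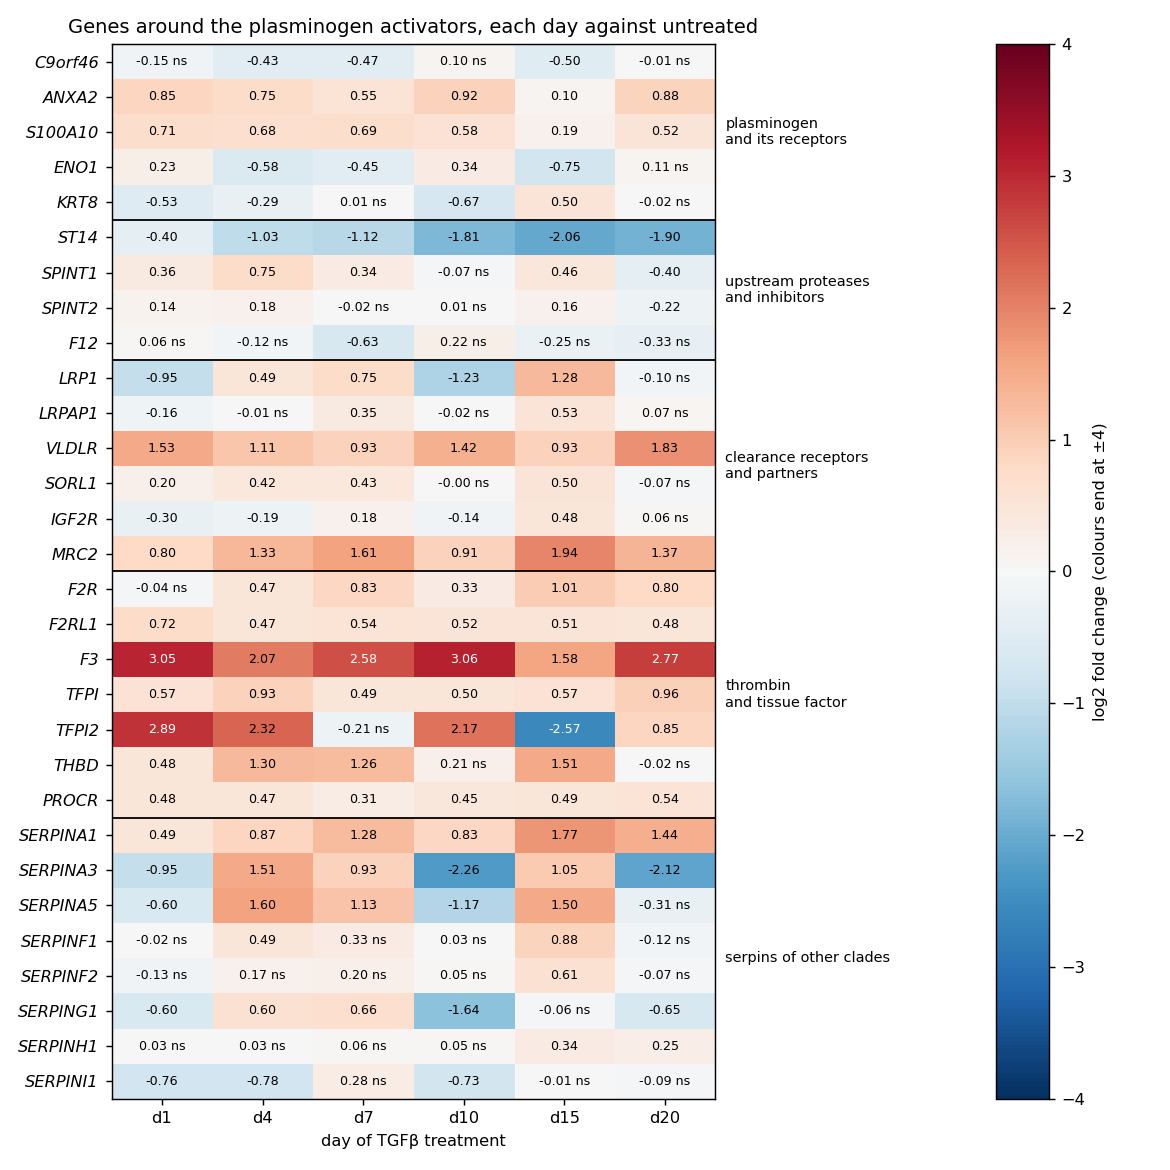
Log2 fold change against untreated cells on each treated day for tested genes of 5 lists around the plasminogen activators, with ns where the adjusted p was 0.05 or more and colours that end at 4 in either direction. F3 is red and ST14 is blue throughout, and LRP1, SERPINA3 and SERPINA5 change sign between days.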

How the data were processed

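RNA-seq libraries of untreated and TGFβ-treated HMLE cells, 3 for each of 7 timepoints, were analysed from one deposited table of 23201 gene symbols. The authors deposited a normalized signal, a gene's reads over the library's size factor, rounded to 2 decimals. Whole reads were recovered for 100% of values (tolerance 0.0051). The submitters' processing notes name STAR 2.7, Salmon 1.4 and hg19, with no roles. The groups came from the labels, and columns were tied to timepoints by their headers.

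Genes with a mean of at least 10 were tested on log2(value + 1), a scale that understates changes of low genes, with limma 3.58.1 in R 4.3.3 (one fit over all timepoints, eBayes with a trend), Benjamini-Hochberg adjustment within each contrast and a threshold of 0.05. Genes with at most 3 reads were taken as at the floor, a limit that covers counting error only. The SDs and the SEs of limma describe the spread between libraries. Alternatives were a pseudocount of 10, no filter, rescaling to one total, quantile normalization, 2 timepoints per fit, edgeR 4.0.16 and DESeq2 1.42.0 on recovered reads, a 2-fold minimum, and each library left out. The code was tested on simulated data. The members, gene lists and motifs were chosen with earlier results of these data known. From each list up to 4 called genes were named by largest change, and others to complete a count. For each member the 2 genes of highest correlation were named. Some genes that these rules and lists take in are not reported here, nor counted among the serpins outside clade B. The fall and rise from d4 to d20 and the cell-cycle list were chosen after seeing the data. Plots were made with Python 3.11.15 and matplotlib 3.10.9.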

Additional observations from a re-analysis of the deposited data

Results flagged for a closer look

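Each of the 7 members had different levels on different days of treatment, and the widest difference between 2 treated days passed the test in every one (limma, Benjamini-Hochberg adjusted p over all genes). In log2 units, SERPINE2 was 1.52 higher at d4 than at d15 (adjusted p = 2.5e-15), PLAU 1.55 higher at d4 than at d15 (adjusted p = 6.6e-15) and PLAUR 0.90 higher at d10 than at d7 (adjusted p = 2.4e-09). PLAT was 2.99 higher at d20 than at d15 (adjusted p = 9.4e-11), and SERPINB2 was 4.31 higher at d1 than at d15 (adjusted p = 2.9e-12). SERPINB5 was 0.65 higher at d7 than at d20 (adjusted p = 1.8e-06), and SERPINB7 was 1.07 higher at d7 than at d10 (adjusted p = 1.3e-07). The pairs of days were picked as the widest of 15 per gene, a choice that the adjusted p does not cover. The share of all genes that would pass when picked in this way was not counted. Between consecutive treated days alone, 25.5% to 40.5% of all genes were called in each direction, so passing is not particular to these members.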

How the results depend on the processing

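The alternatives were run for each day against d0 and for consecutive treated days, and in these no call of a member turned direction. Other pairs of treated days, such as d4 against d15 or d7 against d20, were not rerun. Among uncalled differences, SERPINB2 from d4 to d7 (log2 -0.10) came to 0.38 without the third d7 library and 0.04 and 0.03 with edgeR and DESeq2, and SERPINB5 from d1 to d4 (-0.10) to 0.00 with quantile normalization. Of the members' log2 fold changes under alternatives, 1023 kept their side of the threshold, 42 lost the call and 13 gained it. The lost calls include changes under 2-fold that the 2-fold minimum set aside, where the fold change itself stayed the same. Rescaling to one total moved the median of all genes against d0 by -0.16 to -0.23 and quantile normalization by -0.06 to -0.09, and with either the members higher at d10 numbered 4, not 5, the gene lost being SERPINB7. Members lower at d4 numbered 2, not 1, with rescaling, quantile normalization, 2 timepoints per fit, edgeR and DESeq2, the added gene being SERPINB2. Members lower at d7 numbered 1, not 2, without the filter, with 2 timepoints per fit, with DESeq2 and with the 2-fold minimum, and 1 to 2 with a library left out. Members higher from d4 to d7 numbered 0 with quantile normalization, 2 timepoints per fit or the 2-fold minimum, and 0 to 2 with a library left out. Members higher from d10 to d15 numbered 2 with rescaling or 2 timepoints per fit. With the 2-fold minimum, 3 members were higher at d10, d15 and d20 and 1 was lower at d20. With it, members higher and lower numbered 0 and 1 from d1 to d4, 0 and 1 from d4 to d7, 2 higher from d7 to d10, 0 higher from d10 to d15, and 3 and 0 from d15 to d20. List genes higher with that minimum numbered 3, 7, 5, 3, 8 and 4 on the 6 days (18, 22, 20, 14, 23 and 14 without it), and those lower 1 on day 1, 2 on days 4 and 7, and 4 on days 15 and 20. List genes lower numbered 16 at d10 with quantile normalization (10 otherwise) and 15 at d20 with rescaling (7 otherwise). The cause of these shifts was not tested beyond the settings' own construction. No paired analysis was possible because no column header gives a replicate number. Counts of 7 to 26 reads limit SERPINB2 and PLAT at d15.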

Other observations

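Over the 21 libraries, the gene whose log2 values followed PLAUR most closely among 13342 others was PLAU (Pearson r = 0.98), the gene of its ligand, and PLAUR was the third closest to PLAU. Over the 18 treated libraries r was 0.96, PLAU ranking the second for PLAUR and PLAUR 11 for PLAU. MBOAT2 was among the closest pair of genes for both (r = 0.99 with PLAU and 0.98 with PLAUR). SERPINE2 was followed most closely by ITGB1 (r = 0.99, and 0.94 over the treated libraries), which encodes an integrin chain of cell adhesion to matrix. PLAT went with DEK and PGD (r = 0.96 with each) and SERPINB2 with GSDMC and DAPP1 (0.95 and 0.93). SERPINB5 went with PTGFRN and TNS4 (0.97 with each) and SERPINB7 with DFNA5 and IGSF3 (0.96 and 0.95). Over the treated libraries r was 0.87 and 0.89 for the pairs of SERPINB5. It was 0.95 with each for PLAT, 0.95 and 0.94 for SERPINB2, and 0.94 and 0.93 for SERPINB7. PLAT and SERPINE2, which moved apart from d0, had r = -0.33 over all libraries and 0.84 over the treated ones. Such an r was common there: SERPINE2 ranked 1592 among the 13342 others for PLAT. These are descriptions: libraries of a timepoint are replicates of each other, the untreated libraries stand apart from the treated ones, and all values share the size factor of their library.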
